A study of Mus musculus with 16 samples.

Results

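Solute carriers, the membrane proteins that move sugars, amino acids, metals, nucleotides and other small molecules, were followed at the RNA level in 2 subsets of mouse CD4+ T cells after treatment with venetoclax, a drug that binds and blocks BCL-2, a protein that keeps lymphocytes alive. The members are all genes whose symbol has the form Slc, a family number, the letter a and a member number, and that stand in the tables of both subsets. The rule used names only and took 181 genes of 43 families, out of 10774 genes present in both tables. The Tcon table held 193 such rows and that of Treg held 186. The 12 found only in Tcon include Slc7a11, the cystine-glutamate exchanger, and the 5 found only in Treg include Slc7a10 and Slc38a11. They enter no count below. Because of the naming pattern, carriers whose subfamily letter is not a (the Slc35b to Slc35f genes, for example) are not members, and 3 members are no transporters: Slc4a1ap, Slc9a3r1 and Slc7a6os carry the prefix as relatives or partners.

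The cells were conventional T cells (Tcon, CD4+ FOXP3-) and regulatory T cells (Treg, CD4+ FOXP3+) sorted from spleen and lymph node. The strain is B6.Cg-Foxp3tm2Tch/J with a WT genotype label, so every group carried the same GFP reporter allele of Foxp3 (FOXP3-IRES-GFP). Vehicle or venetoclax at 50 mg/kg was given over 14 days; age and sex are not given in the labels. Each of the 4 groups (vehicle and venetoclax, Tcon and Treg) held 4 libraries, numbered as biological replicates 1 to 4, and the same code stands on the Tcon and the Treg library of a number. The 16 libraries held 21335006 to 25027038 reads on genes, and members took 0.806% ± 0.0608 of them in vehicle Tcon, 0.825% ± 0.0157 in venetoclax Tcon, 0.839% ± 0.0233 in vehicle Treg and 0.854% ± 0.0128 in venetoclax Treg (SD, n = 4 each). Foxp3 separated the subsets (19839.6 ± 1443 against 688 ± 50.9 normalized counts in vehicle mice). Y-linked reads were present in vehicle replicate 2 and venetoclax replicates 1, 2 and 3 and near 0 in the other 4 codes, so the groups are unequal in this respect. The Tcon libraries of vehicle and venetoclax replicate 3 stood apart from the other 6 on the second principal component (-29.7 and -24.6 against 2.44 to 22.7).

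As background, a T cell at rest takes up little, and after activation it raises glucose carriers of the Slc2 family, lactate carriers of the Slc16 family and amino acid carriers, among them the heavy chain CD98 (Slc3a2) with its light chains of the Slc7 family. Members of the Slc25 family sit in the inner mitochondrial membrane and exchange nucleotides, phosphate, cofactors and metabolites with the cytosol. The Slc39 (ZIP) family brings zinc into the cytosol, and the Slc30 (ZnT) family takes it out or into vesicles. RNA from a bulk sample does not tell fewer cells of a kind from less RNA per cell.

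In vehicle mice the members with the highest RPKM (reads scaled by exon length and library size) were carriers of mitochondrial and basic cell functions. Slc25a5, the adenine nucleotide translocase ANT2, led with 272 ± 10.2 in Tcon and 285 ± 27.8 in Treg (SD, n = 4). This gene has processed pseudogenes, and how reads shared with them were counted is not given. Slc44a2, a choline carrier-like protein, followed with 135 ± 17.2 and 137 ± 4.89, and Slc25a3, the mitochondrial phosphate carrier, stood at 120 ± 9.8 and 113 ± 8.09. Slc28a2, a sodium-coupled nucleoside carrier, stood at 81.4 ± 7.41 in Tcon and 78.1 ± 7.94 in Treg.

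Several members differed strongly between the subsets in vehicle mice, here in CPM (each library brought to the same read total) with no test, because the scaling of each table was set on its own. All 4 Treg libraries lay above all 4 Tcon libraries for 58 members and below for 20, together 43.1% of members against 36.5% of all genes (24.5% above and 12% below). Scaling by TMM gave 50 above and 29 below, and the shares of all genes under TMM were not counted. Slc16a5, a member of the monocarboxylate carrier family, was the one most in favour of Tcon, at 80.1 ± 7.82 CPM against 9.01 ± 2.17 in Treg, a ratio of 8.89. Slc16a10, a carrier of aromatic amino acids, stood at 15.8 ± 1.64 CPM in Tcon and 4.24 ± 0.564 in Treg. Slc20a1, a phosphate importer, and Slc12a7, a potassium-chloride cotransporter, were 2.47- and 2.09-fold higher in Tcon, and the zinc carrier Slc30a4 was 2.04-fold higher there. Slc1a4 (neutral amino acids), Slc26a11 (anions) and Slc25a23 (ATP-Mg for phosphate) had Tcon over Treg ratios of 2.43, 2.34 and 1.57.

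On the Treg side, the lactate exporter Slc16a3 (MCT4) stood at 11.5 ± 0.612 CPM against 2.63 ± 0.249 in Tcon, a ratio of 4.39. Slc22a15, of the organic ion carriers, stood at 18.9 ± 2.33 against 3.26 ± 0.773 CPM. Slc9a7, a sodium-proton exchanger of the Golgi, stood at 16.2 ± 1.88 against 4.73 ± 0.501. Slc43a1, a carrier of large neutral amino acids, reached 6.54 ± 0.555 against 1.02 ± 0.41 CPM. The widest ratios belong to members with under 1 CPM in Tcon: Slc22a2 (23.1), the calcium exchanger Slc24a3 (9.58), the peptide carrier Slc15a3 (9.36) and Slc12a8 (8.26). These 4 rest on few Tcon reads, and Slc24a3 had none in vehicle replicate 1 of Tcon.

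**Figure D1:**
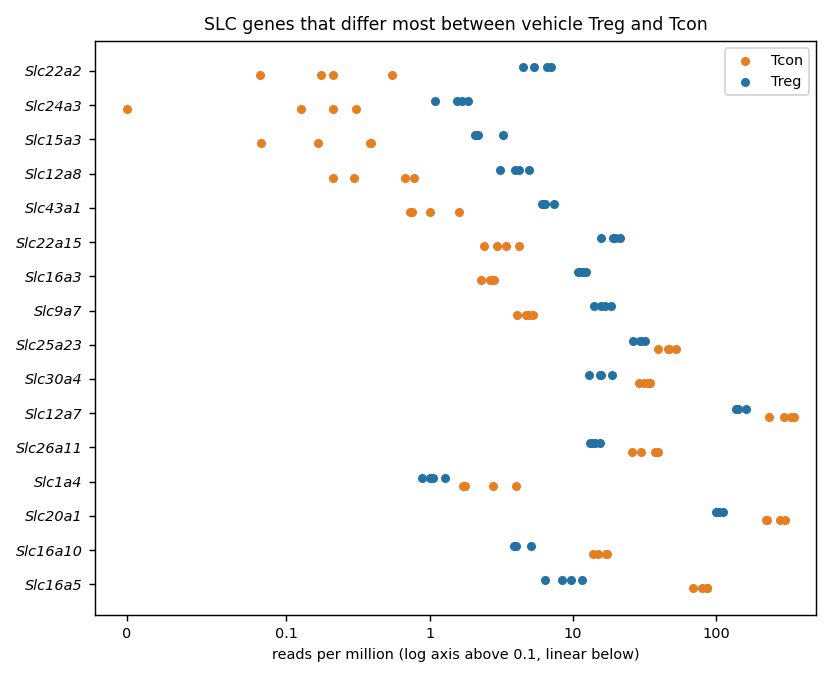
CPM of the 16 members with the widest ratio between vehicle Treg and vehicle Tcon, 1 point a library (orange Tcon, blue Treg); the axis is logarithmic above 0.1 and linear below it. Slc16a5, at 80.1 CPM in Tcon and 9.01 in Treg, is the widest on the Tcon side.

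The treatment comparison asks which carrier transcripts differ between venetoclax and vehicle within a subset; changes below are venetoclax over vehicle on the scale of log2(normalized count + 1). In Tcon 12 of 181 members passed limma's test at an adjusted p of 0.05 (6.63%; 6.91% of all genes), 5 higher (background 3.92%) and 7 lower (2.99%). In Treg 33 members passed (18.2%; 19.6% of all genes), 23 higher (10.7%) and 10 lower (8.81%). Both shares lie near those of all genes. The median change of members was 0.05 in Tcon and 0.04 in Treg, beside 0.00 for all genes in each subset, and no called member moved more than 2-fold. All 4 venetoclax libraries lay above all 4 vehicle libraries for 20 members in Tcon (8.78% of all genes) and 31 in Treg (12%), and below for 14 (7.47%) and 13 (10.7%). edgeR on recovered reads called 12 members in Tcon (7.04% of all genes) and 33 in Treg (19.8%), and DESeq2 26 (12.2%) and 37 (21.8%). With upper quartile scaling the Treg calls split into 20 higher and 16 lower, where 2317 of all genes passed. The split of all genes under that scaling is not given here.

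Removing single libraries moved these counts. The share of all genes called, in brackets, moved the same way. The Tcon count fell to 3 without venetoclax replicate 1 (2.74% of all genes) and to 6 without vehicle replicate 1 (4.13%), and rose to 22 without both libraries numbered 3 (12.9%). The Treg count fell to 21 without venetoclax replicate 1 (12%) and to 19 without both libraries numbered 3 (9.29%). With the replicate number as a block, 31 members passed in Tcon (1880 of all genes, beside 772 without it) and 40 in Treg (2467, beside 2164). With a Y-linked level as covariate 5 members passed in Tcon (3.06% of all genes), of which Slc14a1, Slc25a13, Slc25a28 and Slc39a6 were among the 12, and 30 in Treg (14.4%), 25 of them among the 33. By the adjusted p-value in the authors' deposited table, 23 members were under 0.05 in Tcon, all 12 among them, and 34 in Treg, 32 of the 33 among them. The share of all genes under 0.05 by that p-value is not given here. The 23 and 34 therefore do not show more or fewer calls among carriers than among other genes.

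In both subsets 7 of the 181 members passed, each in the same direction, beside 388 of 10774 genes (3.6%). The 7 are 58.3% of the 12 Tcon calls and 21.2% of the 33 Treg calls of members. For all genes, the 388 stand beside 772 Tcon and 2164 Treg calls. Slc14a1, Slc25a16 and Slc16a5 fell; Slc25a13, Slc5a3, Slc15a4 and Slc39a6 rose. With the Y-linked covariate the Tcon calls of Slc25a16 (limma adjusted p = 0.0544), Slc16a5 (0.0656), Slc15a4 (0.0876) and Slc5a3 (0.149) were lost, each in the same direction. The sign was shared by all 12 Tcon calls and for 29 of the 33 Treg calls, and for 134 of the 181 members. These shares and the correlation below were not computed over all genes, so they are not shown to be particular to carriers. Across members the changes in both subsets had a Pearson r of 0.55 (n = 181 genes, which are not replicates; libraries of a code may come from 1 mouse).

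**Figure D2:**
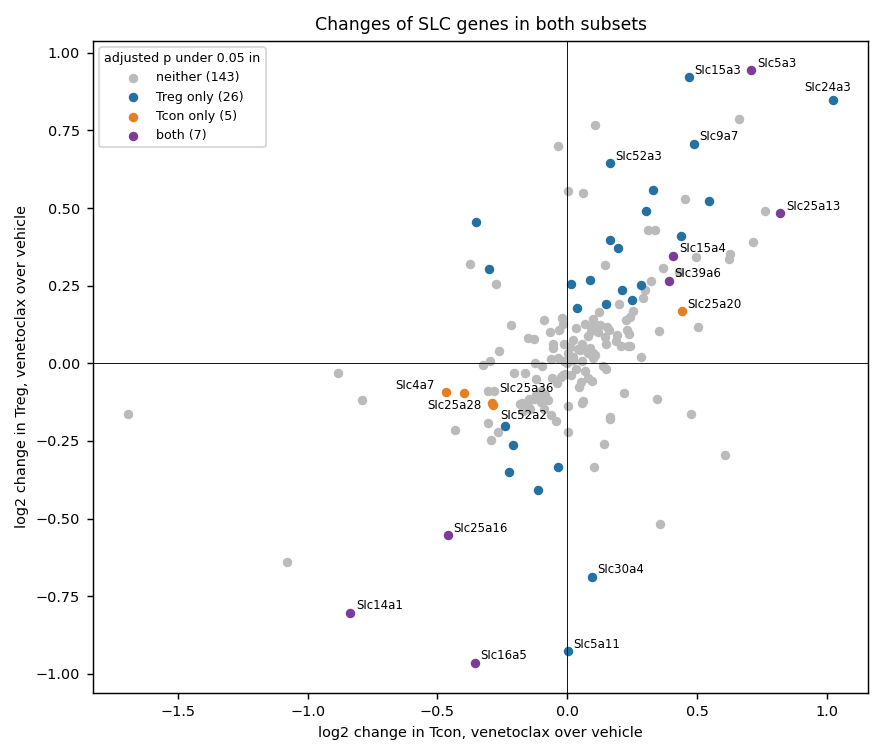
Log2 change of each of the 181 members in Tcon (horizontal) and Treg (vertical), coloured by where the limma adjusted p was under 0.05: 143 in neither, 26 in Treg alone, 5 in Tcon alone and 7 in both. Slc14a1, Slc25a16 and Slc16a5 lie at the lower left, Slc5a3 and Slc25a13 at the upper right; the colours show calls, not a test of the difference between subsets.

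Slc14a1, the urea transporter UT-B (Entrez 108052), showed the clearest fall. Its normalized counts in Tcon were 1530.1, 1455.4, 1451.2 and 1113.3 in the vehicle libraries and 687.7, 773.8, 834.7 and 797.9 in the venetoclax libraries. In Treg they were 3459.9, 3592.2, 3507 and 2717.4 in the vehicle libraries and 1737.2, 2074.8, 1789.4 and 1973.1 in the venetoclax libraries. In both subsets every venetoclax library lay below every vehicle library, with vehicle replicate 4 the lowest of its group. The fall was 1.78-fold in Tcon (log2 change -0.84, SE 0.11, limma adjusted p = 0.0015) and 1.75-fold in Treg (log2 change -0.80, SE 0.08, limma adjusted p = 0.000104). It was the single member called under each of the 18 alternatives in Tcon (adjusted p up to 0.0353). Red blood cells also make this protein; the summed counts of the erythroid markers with a row (2 in Tcon and 4 in Treg) ran from 10.6 to 56.6 in vehicle and 13.1 to 201 in venetoclax Tcon, and from 33.1 to 554 and 20.3 to 1343 in Treg. These sums overlapped between treatments, and their part in the fall was not tested.

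Slc25a16, a mitochondrial carrier linked to coenzyme A (Entrez 73132; chromosome 10, 62920632 to 62946494, GRCm38.p6), fell as well. The Tcon values were 691.3, 627.7, 616.4 and 562.1 in the vehicle libraries and 460.4, 430.8, 437.5 and 481.9 in the venetoclax libraries. The Treg values were 589.8, 563.8, 597.8 and 475.1 in the vehicle libraries and 402.6, 392.8, 345.9 and 370.6 in the venetoclax libraries. No vehicle library reached down to a venetoclax library in either subset (log2 change -0.46, SE 0.09, limma adjusted p = 0.00999 in Tcon; log2 change -0.55, SE 0.09, limma adjusted p = 0.00109 in Treg). Slc16a5 (Entrez 217316; chromosome 11, 115462405 to 115474398), the Tcon-weighted carrier named above, read 2013.9, 1977.2, 1739.4 and 1845.2 in the vehicle libraries and 1345.2, 1681.3, 1459.7 and 1448.7 in the venetoclax libraries in Tcon. In Treg, at a lower level, it read 227.7, 197.7, 278.5 and 152 in the vehicle libraries and 113.4, 133.3, 87.9 and 97 in the venetoclax libraries. The groups did not overlap, and the fall was 1.28-fold in Tcon (log2 change -0.35, SE 0.08, limma adjusted p = 0.0286) and 1.95-fold in Treg (log2 change -0.96, SE 0.18, limma adjusted p = 0.00272). The difference between these falls was not called (interaction log2 -0.61, limma adjusted p = 0.255).

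Of the members that rose in both subsets, Slc25a13, the mitochondrial aspartate-glutamate carrier citrin (Entrez 50799; chromosome 6, 6041218 to 6217304), had the largest Tcon rise. Its Tcon counts were 62.9, 47, 57 and 53.6 in the vehicle libraries and 88.7, 108.2, 97.8 and 96.8 in the venetoclax libraries. Its Treg counts were 107.1, 103, 125.6 and 144.4 in the vehicle libraries and 151.3, 167.9, 167.2 and 181.5 in the venetoclax libraries. All venetoclax libraries were above all vehicle libraries (log2 change 0.82, SE 0.15, limma adjusted p = 0.00797 in Tcon; log2 change 0.48, SE 0.13, limma adjusted p = 0.0191 in Treg). Slc5a3, the sodium-coupled myo-inositol importer SMIT1 (Entrez 53881; chromosome 16, 92058322 to 92087473), had the largest Treg rise. In Treg it went through 815.6, 1165.1, 874.3 and 1035.6 in the vehicle libraries and 1867.3, 1536.5, 2273.5 and 1807 in the venetoclax libraries. In Tcon the counts were 524.1, 733.7, 426.4 and 730.9 in the vehicle libraries and 1148.1, 927.9, 925.4 and 871 in the venetoclax libraries. The groups stood apart in each subset (log2 change 0.94, SE 0.12, limma adjusted p = 0.000275 in Treg; log2 change 0.71, SE 0.17, limma adjusted p = 0.0328 in Tcon). Slc5a3 shares 159 of its 10913 annotated exon bases with Mrps6 on the same strand, so reads there cannot be assigned to 1 gene.

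Slc15a4, a lysosomal carrier of histidine and small peptides (Entrez 100561; chromosome 5, 127594545 to 127633292), and Slc39a6, the zinc importer ZIP6 (Entrez 106957), rose more modestly. Slc15a4 went from 470.1 ± 29.7 to 625 ± 51.5 in Tcon (log2 change 0.41, SE 0.09, limma adjusted p = 0.0188) and from 425 ± 24.3 to 539.6 ± 16.5 in Treg (log2 change 0.35, SE 0.07, limma adjusted p = 0.00458; SD, n = 4 per group). Slc39a6 went from 850.0 ± 55.3 to 1117 ± 84.7 (log2 change 0.39, SE 0.08, limma adjusted p = 0.0154) and from 711 ± 26.7 to 856 ± 54.9 (log2 change 0.27, SE 0.06, limma adjusted p = 0.0115). Venetoclax and vehicle libraries did not overlap for either gene in either subset. An unnamed gene on the opposite strand, Gm43474, covers 425 of the 2732 exon bases of Slc15a4, and the strand setting of the counting is not given. Genes on the opposite strand also cover 14.9% of the exon bases of Slc25a33, 9.2% of Slc25a25, 7.62% of Slc43a2, 5.04% of Slc16a5, 4.02% of Slc37a2, 4.01% of Slc15a3, 3.22% of Slc2a1 and 1.64% of Slc11a2, so reads there may belong to either gene.

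**Figure D3:**
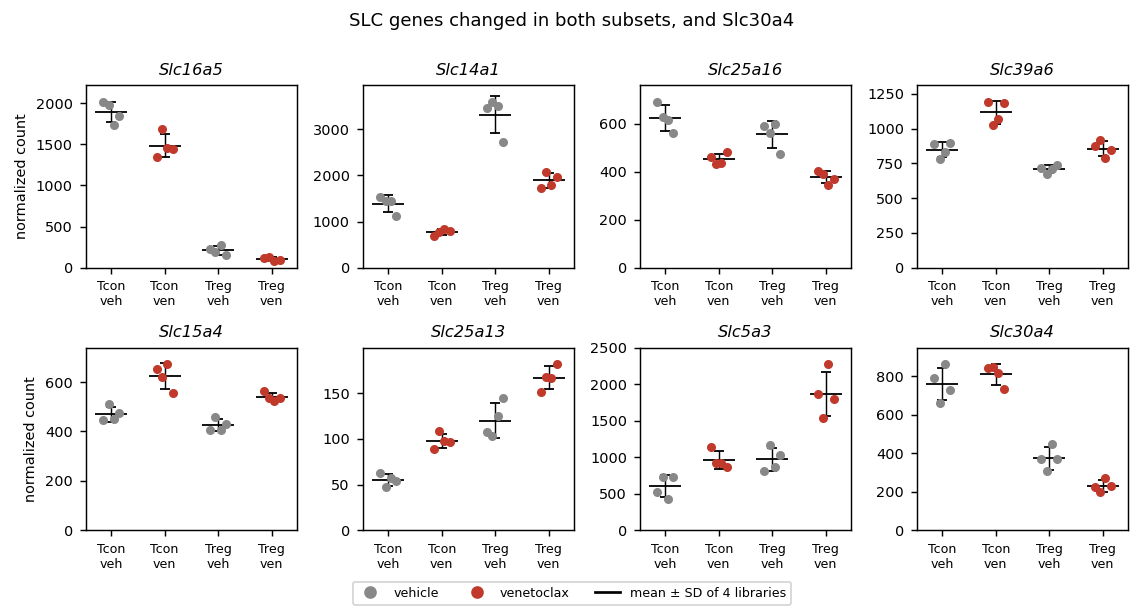
Normalized counts per library (grey vehicle, red venetoclax; bar and whisker are mean ± SD of 4 libraries) of the 7 members called in both subsets and of Slc30a4; each panel has its own axis from 0. Levels are comparable within a subset; Slc30a4 lies lower under venetoclax in Treg (231 against 374) and not in Tcon (811 against 761).

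Slc30a4, the zinc exporter ZnT4 (Entrez 22785; chromosome 2, 122681233 to 122702663), was the single member whose response differed between subsets at an adjusted p of 0.05 (background 1.3%). In Treg it read 370.8, 305.9, 450.8 and 368.7 in the vehicle libraries and 225.8, 197.4, 269.6 and 231.4 in the venetoclax libraries. In Tcon it read 789.6, 662.7, 862.3 and 730.9 in the vehicle libraries and 843.4, 850.3, 815.5 and 733.7 in the venetoclax libraries. The Treg groups did not overlap (log2 change -0.69, SE 0.12, limma adjusted p = 0.00224), while the Tcon groups did (log2 change 0.09, SE 0.09, limma adjusted p = 0.614), and the difference was log2 -0.78 (SE 0.16, limma adjusted p = 0.0241, and 0.00407 with the code shared by Tcon and Treg libraries as a block). Over the 18 alternatives this p ran from 0.00073 to 0.249. The call was lost without vehicle replicate 1 (0.0833), vehicle replicate 4 (0.0823), venetoclax replicate 1 (0.124) and venetoclax replicate 2 (0.134).

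With that block 9 members passed (background 3.61%), with edgeR 3 (1.31%) and with DESeq2 4 (2.74%). Besides Slc30a4 they were Slc37a2, a sugar phosphate carrier (log2 0.81, blocked adjusted p = 0.0222, unblocked 0.0548), Slc39a4, the zinc importer ZIP4 (0.61; 0.0323 and 0.12), Slc22a5, the carnitine importer (0.53; 0.0097 and 0.0535), and Slc4a7, a sodium-bicarbonate cotransporter (0.37; 0.0253 and 0.193), all with the higher change in Treg. Lower in Treg relative to Tcon were Slc17a9, a vesicular nucleotide carrier (-0.46; 0.0147 and 0.132), the adenine nucleotide translocases Slc25a5 (-0.34; 0.0332 and 0.167) and Slc25a4 (-0.34; 0.0365 and 0.205), and Slc2a1 (-0.30; 0.0329 and 0.208).

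Promoters are printed for 4 members that fell or rose together in both subsets or, for Slc30a4, moved in 1. The windows are the 250 bases before the start site in RefSeq (GRCm38.p6), 5′ to 3′ on the gene's strand. For Slc25a13 and Slc25a16 the start site is that of a transcript that begins inside the bounds given above. Capitals mark CACGTG (the E-box) or TGCNCNC on either strand. TGCNCNC is a loose pattern that includes the core of the metal response element, so a match need not be that core. The Slc30a4 window (chr2:122702664-122702913, minus strand) holds 4 matches to TGCNCNC. The Slc25a13 window (chr6:6217174-6217423, minus strand) holds 1 match to each, that of Slc25a16 (chr10:62920383-62920632, plus strand) 1 to TGCNCNC and that of Slc5a3 (chr16:92058072-92058321, plus strand) 1 to TGCNCNC. Slc15a4 also rose in both subsets, and its window (chr5:127617393-127617642, minus strand) is not printed. It holds 0 matches to CACGTG and 0 to TGCNCNC, and its transcript also begins inside the bounds given above. No windows are shown for Slc14a1, Slc16a5 and Slc39a6.
Slc30a4: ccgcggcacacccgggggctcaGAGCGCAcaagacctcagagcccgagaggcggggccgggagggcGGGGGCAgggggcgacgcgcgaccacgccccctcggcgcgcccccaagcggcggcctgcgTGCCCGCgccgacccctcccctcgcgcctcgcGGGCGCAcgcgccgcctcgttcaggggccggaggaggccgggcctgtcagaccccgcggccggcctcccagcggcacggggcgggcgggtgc
Slc25a13: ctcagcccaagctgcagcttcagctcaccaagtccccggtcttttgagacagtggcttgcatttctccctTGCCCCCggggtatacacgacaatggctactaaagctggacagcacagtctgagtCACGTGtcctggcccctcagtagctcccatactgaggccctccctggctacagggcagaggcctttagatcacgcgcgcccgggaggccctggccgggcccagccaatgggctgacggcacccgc
Slc25a16: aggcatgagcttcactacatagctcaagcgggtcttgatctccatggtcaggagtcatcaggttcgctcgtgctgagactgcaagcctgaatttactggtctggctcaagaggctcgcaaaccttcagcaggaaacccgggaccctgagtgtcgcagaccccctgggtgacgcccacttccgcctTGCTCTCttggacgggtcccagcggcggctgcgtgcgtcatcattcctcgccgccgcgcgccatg
Slc5a3: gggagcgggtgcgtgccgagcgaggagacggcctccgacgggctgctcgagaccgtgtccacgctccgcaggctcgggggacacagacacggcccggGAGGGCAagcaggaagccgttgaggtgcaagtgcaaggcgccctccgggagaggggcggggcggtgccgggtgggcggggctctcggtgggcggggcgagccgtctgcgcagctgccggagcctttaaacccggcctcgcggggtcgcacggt

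Windows were found for 136 members. CACGTG stood in 16.2% of members and in 6.86% of all 27025 genes of the table, TGCNCNC in 56.6% and 47.2%, and TGATGNAA (the core of the amino acid response element) in 2.94% and 3.91%. Among zinc carriers 11 of 16 held TGCNCNC. The 27025 genes include genes not measured here, while every member was measured in both subsets. The sets are therefore unlike, and the differences in share are not shown to be particular to carriers. Such matches are descriptions of letters and no binding was measured.

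For the counts by family or role that follow, the share of all genes called was 6.91% in Tcon (3.92% higher, 2.99% lower). In Treg it was 19.6% (10.7% higher, 8.81% lower). Of the 5 members of the Slc2 family (glucose and other hexoses), 0 passed in Tcon and 1, Slc2a1, in Treg. Slc2a1 (GLUT1, the basal glucose importer; Entrez 20525; chromosome 4, 119108745 to 119137330) read 1053, 1058, 1015.5 and 985.3 in the vehicle libraries and 827.4, 858.8, 844.5 and 733.6 in the venetoclax libraries in Treg. Each venetoclax library was below each vehicle library, a 1.26-fold fall (log2 change -0.33, SE 0.06, limma adjusted p = 0.00322). In Tcon the groups overlapped (from 799 ± 45.7 to 781 ± 62.5; log2 change -0.03, SE 0.08, limma adjusted p = 0.858). Slc2a3 (GLUT3, the high-affinity importer) did not pass in either subset (log2 -0.15, adjusted p = 0.285 in Tcon; log2 -0.12, adjusted p = 0.177 in Treg; 0.04 there with the Y-linked covariate).

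Among 9 members of the Slc16 family, Slc16a5 passed in Tcon, and Slc16a5 and Slc16a3 in Treg, in opposite directions. Slc16a3 (MCT4, known for lactate export) read 276.4, 254.9, 271.6 and 291.7 in the vehicle libraries and 358.1, 294.1, 383.6 and 387.9 in the venetoclax libraries in Treg. Venetoclax replicate 2 was the lowest of its group and only just above vehicle replicate 4 (log2 change 0.37, SE 0.10, limma adjusted p = 0.0191); the call was lost without venetoclax replicate 1 (0.0538), 3 (0.0571) or 4 (0.058). Slc16a1 (MCT1, the lactate and pyruvate carrier) had overlapping groups in both subsets (log2 0.24, adjusted p = 0.45 in Tcon; log2 0.09, adjusted p = 0.473 in Treg).

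None of the 17 members of the amino acid families Slc1, Slc3, Slc7 and Slc38 passed in Tcon, and 1 did in Treg. That was Slc38a1 (SNAT1, a sodium-coupled glutamine importer), which read 4022.4, 3875.1, 3708.5 and 3777.7 in the vehicle libraries and 4718.8, 4287, 4291 and 4282.3 in the venetoclax libraries in Treg. Venetoclax replicate 1 was set apart from the other 3, yet all 4 were above vehicle (log2 change 0.19, SE 0.05, limma adjusted p = 0.0159; 0.0502 without venetoclax replicate 1). Slc7a5 (LAT1, the leucine importer) went from 1120.3 ± 108 to 959 ± 88 in Treg and missed the threshold (log2 change -0.22, SE 0.08, limma adjusted p = 0.0661); over 18 alternatives its p ran from 0.0141 to 0.32. In Tcon its log2 change was 0.01 (adjusted p = 0.992), with vehicle libraries from 897.1 to 1674.7.

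The partner of Slc7a5, Slc3a2 (CD98 heavy chain), did not pass (log2 -0.18, adjusted p = 0.287 in Tcon; log2 -0.13, adjusted p = 0.135 in Treg). Neither did Slc1a5 (ASCT2, a glutamine exchanger; log2 0.15, adjusted p = 0.389 and log2 0.12, adjusted p = 0.319), nor Slc38a2 (SNAT2; log2 -0.10, adjusted p = 0.712 and log2 -0.12, adjusted p = 0.395). Slc7a6 (y+LAT2) and Slc38a9, the lysosomal arginine sensor of mTORC1, had changes of at most 0.10 in size in both subsets. Slc7a1 (CAT1, arginine) and Slc7a7 (y+LAT1) did not pass, with log2 0.06 and 0.63 in Tcon and -0.12 and 0.35 in Treg. Of 8 members of the families Slc6, Slc36 and Slc43, grouped by family number and not all amino acid carriers, 0 passed in Tcon. In Treg Slc43a2, a carrier of large neutral amino acids, passed (log2 change 0.25, SE 0.07, limma adjusted p = 0.0217).

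**Figure D4:**
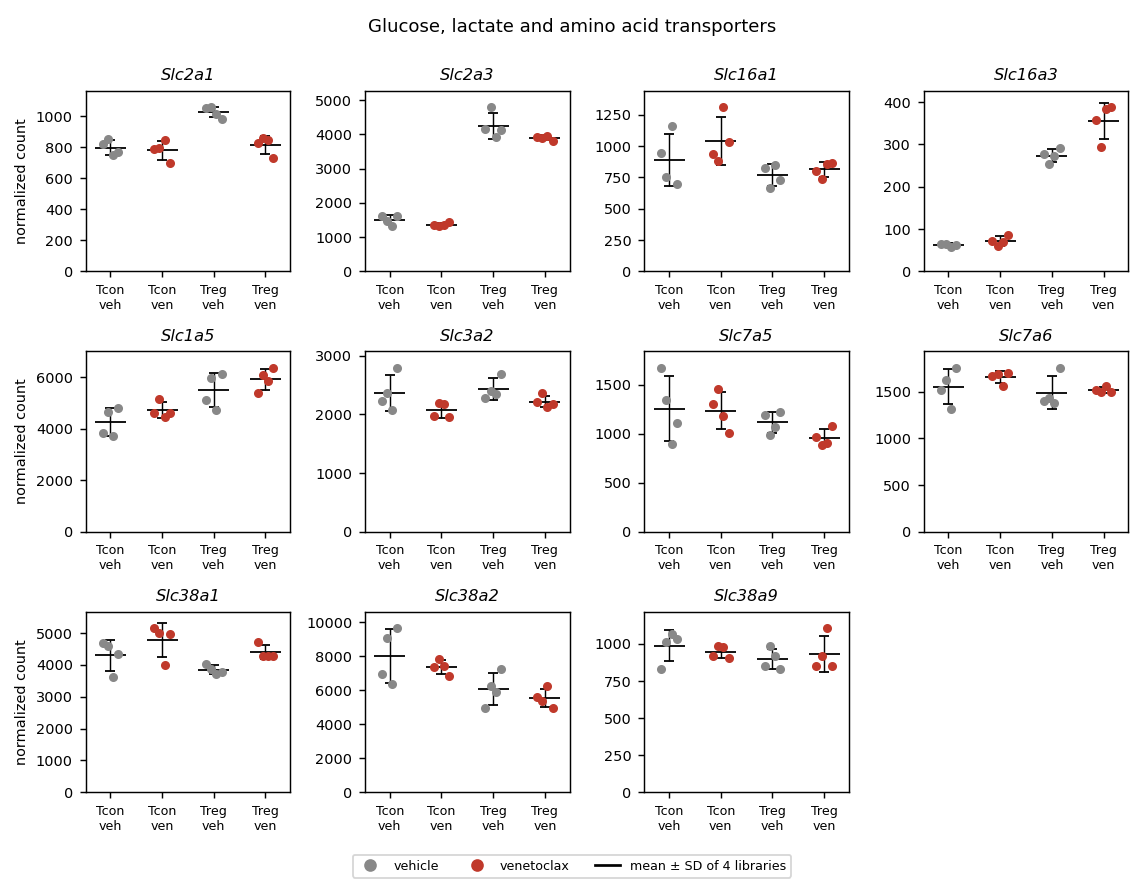
Normalized counts per library of 11 glucose, lactate and amino acid carriers (grey vehicle, red venetoclax; mean ± SD of 4 libraries; each panel has its own axis from 0). Slc2a1, Slc16a3 and Slc38a1 separate by treatment in Treg; in Tcon all 11 overlap.

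The Slc25 family of mitochondrial carriers was the largest group, with 38 members. In Tcon 2 rose and 3 fell, with a median of 0.02, and in Treg 4 rose and 3 fell, with a median of -0.04. Besides Slc25a13 and Slc25a16, the Tcon calls were Slc25a20, Slc25a28 and Slc25a36. Slc25a20, the carnitine-acylcarnitine carrier of fatty acid oxidation, rose (from 619 ± 25.3 to 843 ± 75.7; log2 change 0.44, SE 0.08, limma adjusted p = 0.0107). Slc25a28, the mitochondrial iron importer mitoferrin-2, read 592, 594.7, 625.9 and 633.6 in the vehicle libraries and 446.2, 499.2, 457.7 and 451.3 in the venetoclax libraries, with all venetoclax libraries lower (log2 change -0.40, SE 0.07, limma adjusted p = 0.0101). Slc25a36, a pyrimidine nucleotide carrier, fell (from 2010.1 ± 75 to 1646 ± 83.8; log2 change -0.29, SE 0.06, limma adjusted p = 0.0217). In Treg these 3 had log2 changes of 0.17, -0.09 and -0.13 and did not pass.

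The other Treg calls of the family include Slc25a25, Slc25a33, Slc25a42 and Slc25a53. Slc25a25, an ATP-Mg for phosphate carrier, read 854.5, 855.1, 874.3 and 934 in the vehicle libraries and 648.4, 671.6, 672.5 and 658.7 in the venetoclax libraries, and its groups did not overlap (log2 change -0.41, SE 0.06, limma adjusted p = 0.000592). It shares 379 of 4120 exon bases with Naif1 on the other strand. Slc25a33, a pyrimidine nucleotide carrier, went from 167 ± 13.1 to 131 ± 6.79 (log2 change -0.35, SE 0.11, limma adjusted p = 0.0342). Slc25a42, a carrier of coenzyme A, rose (from 283 ± 37 to 396 ± 14.8; log2 change 0.49, SE 0.10, limma adjusted p = 0.00375), as did the X-linked Slc25a53 (from 237 ± 42.5 to 347 ± 41.5; log2 change 0.56, SE 0.13, limma adjusted p = 0.0089). Slc25a5, the most abundant member, did not pass (log2 0.16, adjusted p = 0.236 in Tcon; log2 -0.18, adjusted p = 0.0878 in Treg). In Treg it passed with DESeq2 (adjusted p = 0.045), with upper quartile scaling (0.0459), with the replicate block (0.0431) and without vehicle replicate 2 (0.00965).

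Of 19 zinc carriers 1 rose in Tcon (Slc39a6), and in Treg 3 rose and 2 fell; the medians were 0.10 and 0.06. In Treg the importers Slc39a6, Slc39a4 (log2 change 0.30, SE 0.08, limma adjusted p = 0.0202) and Slc39a1 (log2 change 0.20, SE 0.06, limma adjusted p = 0.0314) rose, while the importer Slc39a3 (from 825 ± 43.3 to 689.8 ± 69.4; log2 change -0.26, SE 0.08, limma adjusted p = 0.0302) and the exporter Slc30a4 fell. Of 6 carriers of iron, copper and magnesium, 0 passed in Tcon and 2 rose in Treg. These were Slc41a1, a magnesium carrier (from 1949 ± 172 to 2562 ± 94.6; log2 change 0.40, SE 0.06, limma adjusted p = 0.00101), and Slc11a2, the iron importer DMT1 (from 871 ± 41.7 to 1027 ± 27.8; log2 change 0.24, SE 0.06, limma adjusted p = 0.011).

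Slc4a7, a sodium-bicarbonate cotransporter, fell in Tcon (from 1507 ± 106 to 1094 ± 136; log2 change -0.47, SE 0.10, limma adjusted p = 0.0161) and had overlapping groups in Treg. In Treg its relative Slc4a8 rose (from 659.9 ± 108 to 869 ± 38.2; log2 change 0.41, SE 0.10, limma adjusted p = 0.0107), as did the chloride importer Slc12a2 (log2 change 0.27, SE 0.07, limma adjusted p = 0.0207); 2 of 17 in their group passed. The Golgi exchanger Slc9a7, X-linked, read 366.9, 433.8, 337.8 and 397.2 in the vehicle libraries and 728.5, 567.8, 611.6 and 601.1 in the venetoclax libraries in Treg and rose 1.63-fold (log2 change 0.71, SE 0.10, limma adjusted p = 0.000431), with no overlap. Its relative Slc9a8 fell slightly (from 2076 ± 204 to 1798 ± 41.1; log2 change -0.20, SE 0.06, limma adjusted p = 0.0424). The calcium exchanger Slc24a3, at few reads, rose (from 36.6 ± 7.48 to 68.5 ± 25.4; log2 change 0.85, SE 0.24, limma adjusted p = 0.0265), where venetoclax replicate 4 (105.6) was the highest.

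Peptide carriers rose in Treg for 2 of 3: Slc15a4, and Slc15a3, a lysosomal relative, which read 50.6, 51, 49.7 and 77 in the vehicle libraries and 126.8, 95.7, 90.8 and 119.1 in the venetoclax libraries (log2 change 0.92, SE 0.18, limma adjusted p = 0.00373). In Tcon Slc15a3 had at most 10.4 normalized counts. Of 9 vitamin carriers, the riboflavin importer Slc52a2 fell in Tcon (log2 change -0.29, SE 0.08, limma adjusted p = 0.048), and its relative Slc52a3 rose in Treg (from 113 ± 15.8 to 177 ± 24.9; log2 change 0.64, SE 0.13, limma adjusted p = 0.0054). Slc22a15, the Treg-weighted organic ion carrier, rose in Treg (from 448 ± 52.3 to 643 ± 53.4; log2 change 0.52, SE 0.09, limma adjusted p = 0.00213). Slc37a2 rose (log2 change 0.45, SE 0.14, limma adjusted p = 0.0411). The fatty acid carrier Slc27a4 (log2 0.25, adjusted p = 0.0243) and, at few reads, the inositol carrier Slc5a11 (log2 -0.93, adjusted p = 0.0491) also passed in Treg; these 2, with Slc11a2, Slc12a2, Slc39a1, Slc39a4 and Slc43a2, lie outside the naming rule and are named because they passed.

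**Figure D5:**
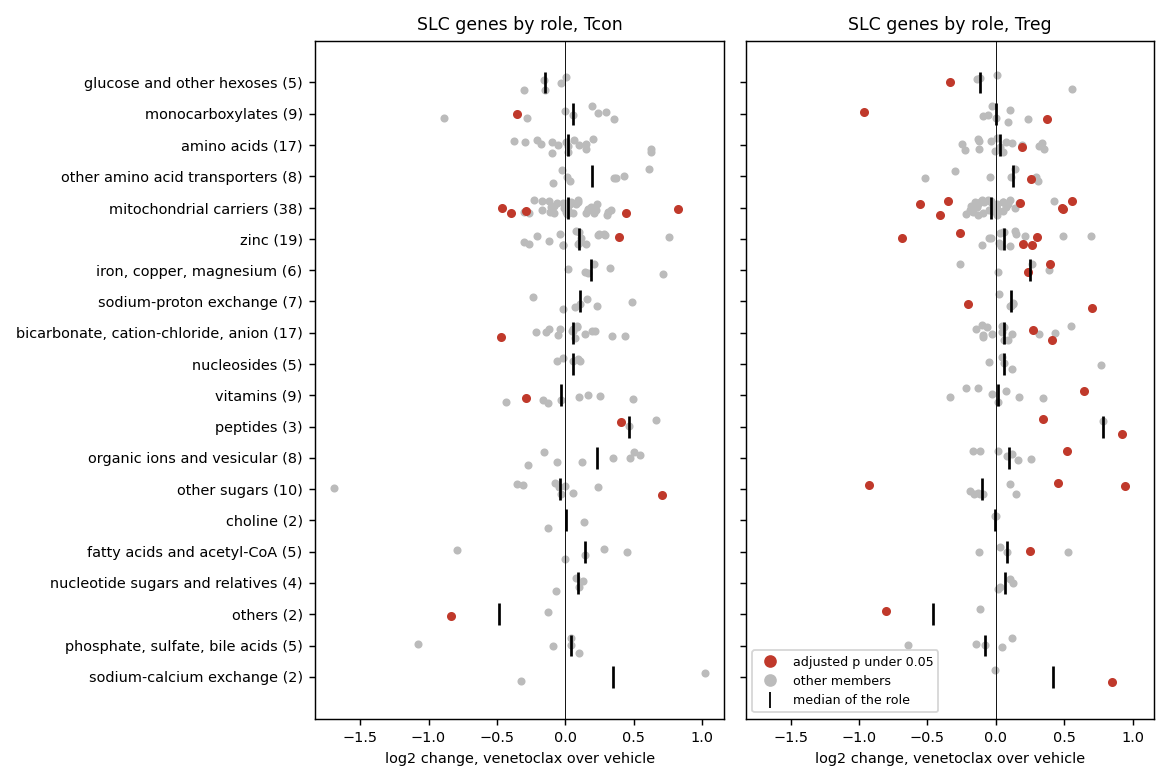
Log2 change (venetoclax over vehicle) of every member by the role of its family, Tcon left and Treg right, with the number of members in brackets; red points have a limma adjusted p under 0.05 and black bars are the medians of a role. Mitochondrial carriers (38) have medians of 0.02 and -0.04, and zinc carriers (19) of 0.10 and 0.06.

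Genes that work with the carriers were counted in separate lists. For these and the lists further below, the share of all genes called was 6.91% in Tcon and 19.6% in Treg. Of 15 carriers under other names, the mitochondrial uncoupling protein Ucp2 rose (log2 0.32, adjusted p = 0.0313) and the pyrophosphate exporter Ank fell (log2 -0.44, adjusted p = 0.00756) in Tcon, and 0 passed in Treg. Of 15 partners and regulators, 1 rose and 1 fell in Tcon, and 3 rose and 4 fell in Treg. Atp1b1, the beta subunit of the sodium pump, whose gradient drives many carriers, fell in both subsets (log2 -0.31, adjusted p = 0.0222 in Tcon; log2 -0.59, adjusted p = 0.00017 in Treg). Sgk1, a kinase that keeps carriers at the membrane, fell in Treg (log2 -1.12, adjusted p = 0.00156) and did not pass in Tcon (log2 -0.37, adjusted p = 0.0746).

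Of 23 genes of amino acid sensing upstream of mTORC1, 1 rose and 2 fell in Tcon (Sesn2 log2 0.61, adjusted p = 0.0386; Mios log2 -0.37, adjusted p = 0.0117; Nprl3 log2 -0.26, adjusted p = 0.0479), and 4 rose and 2 fell in Treg (Rragd log2 0.51, adjusted p = 0.000305; Sesn3 log2 0.37, adjusted p = 0.00198; Mios log2 -0.30, adjusted p = 0.00452). Of 10 transcription factors known to act on carrier genes, Atf4, which acts on amino acid carriers, fell in both subsets (log2 -0.54, adjusted p = 0.0289 in Tcon; log2 -0.55, adjusted p = 0.00101 in Treg). Hif1a, known to act on Slc2a1 and Slc16a3, rose in Treg (log2 0.48, adjusted p = 0.000193), where Slc2a1 fell and Slc16a3 rose. In all 3 factors rose and 4 fell in Treg. The ferritin genes Fth1 (log2 -0.19, limma adjusted p = 0.0305) and Ftl1 (log2 -0.25, limma adjusted p = 0.0284) fell in Treg. In Tcon both changes were also negative and did not pass (Fth1 log2 -0.28, limma adjusted p = 0.0529, and Ftl1 log2 -0.12, limma adjusted p = 0.352).

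Other features of the libraries moved with treatment, and their part in the carrier changes was not tested. All 12 proliferation genes of a fixed list rose in Tcon (summed counts 688 to 1239 in vehicle, 3282 to 5499 in venetoclax) and 0 of 12 passed in Treg (2188 to 3714 and 2577 to 6015). Of 10 immediate early genes, which are induced within minutes of a stimulus, 4 fell in Tcon (27445 to 105286 against 7337 to 33409) and 8 in Treg (44150 to 107987 against 12390 to 39860). Markers of B, CD8 and NK, myeloid and erythroid cells gave 0 calls between treatments in either subset, and platelet markers had no row. Between vehicle Treg and vehicle Tcon, each scaled on its own, some of these markers differed. Cd79b was higher in Treg (343 against 19.8 normalized counts), Klrb1c (33.6 against 386) and Itgam (63.0 against 166) were lower, and Cd79a was similar (75.6 against 70.0). Their part in the carrier levels of the subsets was not tested. Of 3 markers of stroma and vessels 0 passed in Tcon, and in Treg Pecam1, which T cells also express, fell (log2 -0.44, adjusted p = 0.000717), Epcam rose (log2 0.81, adjusted p = 0.000387) and Col1a1 did not pass (log2 0.28, adjusted p = 0.645). Their summed counts were 5727 to 6580 in vehicle and 5135 to 5781 in venetoclax Tcon, and 5233 to 6269 and 4445 to 4945 in Treg. Of 4 genes of Treg identity, Il2ra rose in Tcon (log2 0.98, adjusted p = 0.00589) and Ikzf2 in Treg (log2 0.29, adjusted p = 0.0172), and of 4 genes of CD4 T cell identity 0 passed in either subset. Within libraries with Y-linked reads and within those without, compared as means with 1 against 3 and 3 against 1 libraries, all 12 Tcon and 33 Treg calls kept their direction, which the separation of the groups nearly fixes.

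Many of the calls were lost when 1 library was left out. Such fits hold fewer libraries, and in most of them fewer of all genes passed. The log2 change itself moved little for some calls and more for others. For Slc4a7 in Tcon it was -0.48 without venetoclax replicate 1, beside -0.47 with all libraries. For Slc24a3 in Treg it was 0.62 without venetoclax replicate 4, beside 0.85. In Tcon the calls of Slc14a1, Slc25a16 and Slc25a13 held without any 1 library. Those of Slc25a28 (limma adjusted p = 0.0511) and Slc25a20 (0.0537) were lost without venetoclax replicate 1. Slc4a7 was lost without venetoclax replicate 1 (0.0537) or vehicle replicate 1 (0.057). Slc39a6 was lost without venetoclax replicate 1 (0.0684) or vehicle replicate 2 (0.05). Slc15a4 was lost without vehicle replicate 1 or venetoclax replicate 1, 2 or 3 (0.0554 to 0.0797), and Slc5a3 without vehicle replicate 1 or any venetoclax library (0.0554 to 0.113). Slc25a36 was lost without vehicle replicate 1 or 2 or venetoclax replicate 1, 2 or 3 (0.0558 to 0.0849). Slc16a5 held only without vehicle replicate 3 or venetoclax replicate 2 (else 0.0504 to 0.109), and Slc52a2 only without vehicle replicate 3 (else 0.0555 to 0.158).

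In Treg the calls of the fallers Slc14a1, Slc16a5, Slc30a4, Slc25a16, Slc25a25 and Slc2a1 held without any 1 library, as did those of the risers Slc5a3, Slc15a3, Slc9a7, Slc52a3, Slc25a53, Slc22a15, Slc25a42, Slc4a8 and Slc41a1. Slc25a13 was lost without vehicle replicate 1 (0.0561) or venetoclax replicate 4 (0.0549). Slc24a3 was lost without vehicle replicate 3 or venetoclax replicate 1 or 4 (0.0538 to 0.0778), and Slc39a3 without vehicle replicate 1 or 3 or venetoclax replicate 3 (0.0766 to 0.0876). Slc25a33 held only without vehicle replicate 2 (else 0.0542 to 0.0842). Slc9a8 held only without vehicle replicate 3 or 4 (else 0.0643 to 0.118), and Slc37a2 only without vehicle replicate 2 or 4 (else 0.0508 to 0.129). Outside the naming rule, Slc11a2, Slc39a6 and Slc15a4 held throughout, and Slc5a11 was lost whichever library was left out (0.0585 to 0.13). Slc39a4 held in 6 of 8, Slc27a4 in 5, and Slc39a1, Slc43a2 and Slc12a2 in 4 of the 8 cases, with adjusted p up to 0.0825.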

How the data were processed

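Per the labels' protocols, total RNA of sorted Tcon and Treg went through Illumina NovaSeq sequencing; reads were handled with HISAT2 and SAMtools against mm10, per the submitters' processing notes. The sources used here name no counter, annotation or strand setting. The deposited library columns hold a normalized count signal, the authors' reads after division by a library's size factor; in every column 100% of values were whole multiples of 1 step within a tolerance of 0.01, so reads could be recovered. The authors' deposited log2 fold changes and p-value columns were used as named in the text, and 0 library columns were left unused. Repeated lines (40 in Tcon, 43 in Treg) were dropped and 18 date-like symbols of Treg restored by Entrez identifier; 11168 of 11171 Tcon and 11064 of 11067 Treg genes matched RefSeq of GRCm38.p6, whose coordinates are 1-based.

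Per subset, log2(normalized count + 1) of 4 venetoclax and 4 vehicle libraries was compared with limma 3.58.1 (R 4.3.3; empirical Bayes with a mean-dependent prior), with Benjamini-Hochberg adjustment across the whole table and a threshold of 0.05. The difference between subsets is the interaction over 16 libraries for genes in both tables, each centred by 1 constant. Alternatives were edgeR 4.0.16 (12 Tcon and 33 Treg members called) and DESeq2 1.42.0 (26 and 37) on recovered reads, pseudocount 5, a mean of at least 50, TMM and upper quartile scaling, the replicate block, a Y-linked covariate and left-out libraries. Levels between subsets were set side by side without a test. Named are, per subset, the 12 largest rises and 12 largest falls among calls with a mean of at least 50, 8 members each way for levels, 11 fixed nutrient carriers, per family of interest the highest and the smallest p, and up to 4 genes of each related list. Single values of a few genes are not reported here. Members and lists were chosen with earlier results of these data known.

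Whether numbers pair libraries was checked by correlating deviations from group means. Numbers shared by vehicle and venetoclax libraries were not taken as pairs in the main test, because in each subset 1 same-numbered pair correlated by less than 0.1. Yet 7 of 8 Tcon and 6 of 8 Treg libraries correlated best with their own number. Whether the numbers pair libraries is therefore not settled, and the counts with the replicate block are given as well. Tcon and Treg libraries of 1 code gave 0.2 to 0.551 in all 8 codes, and the labels give both the same code, so the difference is also given with the code as a block. The labels call replicates biological; whether each is 1 animal is not given. The test was checked on simulated data with 100 genes changed 1.5-fold and 100 changed 2-fold. It recovered 66% and 81% of them in Tcon and 80% and 86% in Treg. A member that did not pass may therefore still have changed. Depth is 21335006 to 25027038 reads per library.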

Additional observations from a re-analysis of the deposited data

Results flagged for a closer look

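In 7 of 204 groups of 4 libraries screened (51 named members), 1 library lay far from the other 3; chance flags about 1 in 20 groups. In vehicle Treg, Slc14a1 was low in replicate 4 (2717.4, next 3459.9), Slc15a3 high in replicate 4 (77, next 51), Slc7a6 high in replicate 4 (1756.8, next 1432.5) and Slc16a10 high in replicate 4 (120.7, next 95.4). In venetoclax Treg, Slc38a1 was high in replicate 1 (4718.8, next 4291). In venetoclax Tcon, replicate 3 was low for Slc15a3 (3, next 9.9) and Slc38a1 (3981.9, next 4971.3).

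Slc30a4 differed in its response between the subsets by the interaction test (log2 -0.78, limma adjusted p = 0.0241).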

How the results depend on the processing

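The count of members called was unchanged or within 1.5 times under the other alternatives, and moved under the following. In Tcon, beside 12, it was 26 with DESeq2, 5 with the Y-linked covariate, 22 without both libraries numbered 3, 1 without venetoclax replicates 1 and 3, and 3 to 18 over single left-out libraries; of all genes, beside 772, these were 1364, 342, 1443, 116 and 306 to 1244. In Treg, beside 33, it was 19 without both libraries numbered 3, 14 without venetoclax replicates 1 and 3, and 21 to 37 over single left-out libraries; of all genes, beside 2164, these were 1028, 614 and 1327 to 2198. For the difference, beside 1, it was 4 with DESeq2, 3 with edgeR, 3 with TMM scaling, 2 with the Y-linked covariate, 0 without venetoclax replicates 1 and 3, and 0 to 2 over single left-out libraries. Of all genes, beside 140, these were 295, 141, 139, 144, 4 and 43 to 149. The cause was not tested, except that fewer libraries enter the left-out fits. Same-numbered vehicle and venetoclax libraries correlated by 0.0735 to 0.43 in Tcon and -0.015 to 0.276 in Treg, differently numbered ones by -0.343 to 0.123 and -0.35 to 0.195, and 7 of 8 Tcon and 6 of 8 Treg libraries correlated best with their own number; this is a hint from the data, and the labels do not say what a number shares. With the replicate block 31 members passed in Tcon (19 higher, 12 lower; 1880 of all genes) and 40 in Treg (2467 of all genes). With the code as a block the difference gave 9.

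The sign turned for values near 0 that were not called. In Tcon the log2 change of Slc7a5 was -0.0272 with DESeq2, -0.0261 with edgeR, -0.00273 with TMM, -0.0104 with upper quartile scaling, -0.128 with the Y-linked covariate and -0.128 without both libraries numbered 3, -0.0126 without venetoclax replicates 1 and 3, and -0.144 to 0.156 over single left-out libraries. Slc7a1 in Tcon was at -0.0175 with the covariate, -0.0090 without both libraries numbered 3 and -0.0946 to 0.16 over single ones, and Slc2a1 in Tcon at -0.0742 to 0.0198 over single ones. In Treg, Slc7a6 was at -0.0181 without both libraries numbered 3 and -0.00375 to 0.113 over single ones, and Slc38a9 at -0.0332 with the covariate, -0.0200 without both libraries numbered 3, -0.0165 without venetoclax replicates 1 and 3 and -0.0336 to 0.0962 over single ones. Depth limits mainly members with few reads, such as Slc24a3 and Slc15a3 in Tcon.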
